A study of Mus musculus with 10 samples.

Results

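Wfs1 and Cisd2, the mouse genes whose human counterparts are mutated in Wolfram syndrome, were followed in RNA sequencing of mouse motor cortex. The rows of the deposited FPKM table (fragments scaled to gene length and to library depth) named Wfs1 or Cisd2 were taken, 2 of 35275 gene rows. Both genes were chosen by their KO and WT FPKM values in these same libraries, so their differences between the groups are given as a description, with no test. The tissue came from C57BL/6 mice at postnatal day 22. In 5 mice membralin was deleted conditionally in astrocytes (KO), and 5 mice were wild type (WT). Tmem259 encodes membralin, which resides in the endoplasmic reticulum membrane. The promoter that drove the deletion is not given in the sources used here. Only astrocytes are labelled as targeted, while the RNA came from all cells of the tissue.

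Wolframin, the product of Wfs1, is a membrane glycoprotein of the endoplasmic reticulum. It takes part in calcium storage there and restrains the unfolded protein response, in part by bringing the sensor ATF6 to the ligase HRD1 for degradation. CISD2 holds an iron-sulfur cluster, sits in the membranes of the endoplasmic reticulum and the outer mitochondrial membrane, and binds BCL2 at the calcium channel ITPR1. Loss of either protein in humans leads to a syndrome that includes diabetes and optic atrophy, and in the rodent forebrain Wfs1 is known as a gene of neurons, with strong expression in superficial cortex, striatum and hippocampal CA1.

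Wfs1 (ENSMUSG00000039474) lies on chromosome 5 from 36966104 to 36988982, minus strand, in mm10, and Cisd2 (ENSMUSG00000028165) on chromosome 3 from 135406412 to 135423925, minus strand. Both are protein-coding, and no other gene row of the table overlapped either of them. Of the stretches of 50 bases in their GENCODE M21 protein-coding transcripts, 0 of 3781 in Wfs1 and 19 of 4311 in Cisd2 (0.441%) also occurred in transcripts of another gene. The gene rows add all transcripts of a gene together, so isoforms were not measured.

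The RefSeq promoter windows of both genes (GRCm38.p6, mostly upstream of the start) held 1 CCAAT box each, a short element that the factor NF-Y binds and that forms part of the promoter element of many genes of endoplasmic reticulum stress. Of the elements searched, the CCAAT box and the GC box were found in both members. The stretches around the CCAAT box are shown, with the box (CCAAT, or ATTGG on the other strand) in capitals. In Wfs1 it began 93 bases before the start (chr5:36989058-36989087, minus strand), and in Cisd2 36 bases before it (chr3:135423452-135423481, minus strand). Both stretches also lie in the first exon of a longer GENCODE transcript of the same gene.
Wfs1: cagcacatagtgATTGGcaggcttgccggc
Cisd2: actcgccgcgcgCCAATcgcggcccggcgg
A CCAAT box on either strand was present in 37.4% of 32851 promoter windows. The full ER stress response element (searched by its consensus, which contains the CCAAT box) was found in neither window and in 0.119% of all windows, and the unfolded protein response element (TGACGTGG) in neither and in 0.676%. The GC box (GGGCGG) matched at 4 places in the Wfs1 window and at 1 place in the Cisd2 window, and 35.7% of all windows held it. All letters were searched on both strands.

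CISD2 belongs to a family of 3 mouse genes named after the motif that holds their iron-sulfur cluster. The coding stretches around that motif, from GENCODE M21 transcripts, are shown to set the family members beside each other, with the codons of the motif (CDGSH in Cisd2 and in the first domain of Cisd3, CDGAH in Cisd1) in capitals.
Cisd2: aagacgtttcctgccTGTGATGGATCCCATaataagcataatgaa
Cisd1: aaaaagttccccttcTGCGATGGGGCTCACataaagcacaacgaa
Cisd3: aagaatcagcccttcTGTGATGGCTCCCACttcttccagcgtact
Over these 45 bases Cisd2 and Cisd1 were identical at 30, and Cisd2 and Cisd3 at 23.

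The KO libraries held between 22968013 and 27567361 fragments and the WT libraries between 22793058 and 28827871. The targeted gene, Tmem259, was at 20.1, 18.5, 16.9 and 26.2 FPKM across KO1, KO2, KO4 and KO5, at 34.4 FPKM in the library labelled KO3, and 25.5, 23.8, 25.0, 32.4 and 30.4 FPKM in WT1 to WT5. The library labelled KO3 was thus the highest of the 10, against its label, and the KO values that follow include it except where stated. KO5, at 26.2 FPKM, also lay within the WT range, above WT1, WT2 and WT3, and only KO1, KO2 and KO4 lay below every WT library. Tmem259 did not pass over all 10 libraries (log2 difference -0.27, limma adjusted p = 0.275). Without the library labelled KO3 it passed as lower (log2 difference -0.42, limma adjusted p = 0.0279). As the library left out was the one with the highest Tmem259, this p is no separate support for the deletion. By the chi-square per gene between fragment counts, the library labelled KO3 was nearer to each WT library (7.22 to 20.5) than to any other KO library (22.5 to 35.5). Gfap, the intermediate filament of astrocytes that marks reactive cells, was 106 FPKM in that library, between 426 and 673 FPKM in the other KO libraries, and between 79.4 and 114 FPKM in WT. All 12 upper-layer and all 12 deep-layer markers of cortical excitatory neurons on the lists used here reached a mean of 0.5 FPKM. So did all 14 striatal and all 12 olfactory bulb markers, so their presence does not check the tissue label.

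Wfs1 was about 2-fold higher in KO cortex, in all KO libraries but the library labelled KO3. Wfs1 was at 69.2, 71.2, 72.9 and 106 FPKM across KO1, KO2, KO4 and KO5, at 38.7 FPKM in the library labelled KO3, against 34.6, 39.2, 38.4, 35.3 and 28.9 FPKM in WT1 to WT5. The 4 other KO libraries lay above every WT library, and the library labelled KO3 lay within the WT range, so the groups overlapped by that library alone. The group means were 71.5 ± 23.7 FPKM in KO and 35.3 ± 4.11 FPKM in WT (SD, n = 5 each), a 2.03-fold ratio of means. With that library left out, KO averaged 79.7 ± 17.3 FPKM (SD, n = 4) and the ratio was 2.26. On the log2(FPKM + 1) scale the difference was 0.94 (SE 0.20), and 1.14 (SE 0.13) without that library.

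Between the mice of a group, Wfs1 had a wider spread in KO than in WT, with KO5 and the library labelled KO3 at its ends. KO1, KO2 and KO4 lay close together, at 69.2, 71.2 and 72.9 FPKM. The coefficient of variation was 33.2% in KO, 21.8% in KO without the library labelled KO3, and 11.6% in WT. KO5 stood highest at 106 FPKM, with 8649 fragments, and WT5 lowest at 28.9 FPKM, with 2526 fragments. At those counts the counting error was 1.08% and 1.99%, so nearly all of the spread lay between the libraries and not in the depth. In bulk RNA, more cells that express a gene and more RNA per cell cannot be told apart. Of 14497 genes tested, those whose mean reached 0.5 FPKM, 78 had a larger log2 difference than Wfs1 (0.538% of them). By its mean level per length Wfs1 stood above 94.7% of these genes in KO and above 87.9% in WT.

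Cisd2 differed by far less between the groups. Cisd2 was at 14.8, 13.4, 13.9 and 14.2 FPKM across KO1, KO2, KO4 and KO5, at 12.8 FPKM in the library labelled KO3, against 12.3, 13.0, 13.6, 12.7 and 12.1 FPKM in WT1 to WT5. The groups overlapped: 3 KO libraries lay above every WT library, and KO2 and the library labelled KO3 lay within the WT range. The means were 13.8 ± 0.755 FPKM in KO and 12.7 ± 0.600 FPKM in WT (SD, n = 5 each), a 1.08-fold ratio, and 14.1 ± 0.588 FPKM (SD, n = 4) in KO without the library labelled KO3. The log2 difference was 0.11 (SE 0.053), where the median of all tested genes was 0.0779 and 41.7% of them had a larger one. With 998 to 1371 fragments per library its counting error was 2.70% to 3.17%, beside a coefficient of variation of 5.47% in KO and 4.71% in WT. Scaling bears on a difference of this size: with median-of-ratios scaling, which brought the median of all genes to -0.0023, the log2 difference of Cisd2 was 0.016, and that of Wfs1 was 0.84.

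**Figure D1:**
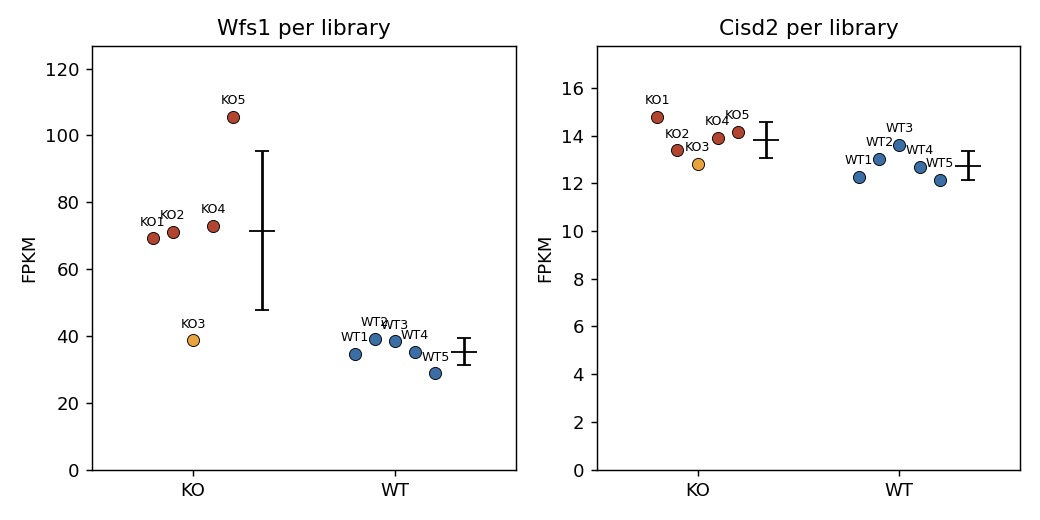
FPKM of Wfs1 (left) and Cisd2 (right) in each library, KO left of WT; points are single mice, the orange point is the library labelled KO3, and the bars give the mean ± SD of 5 libraries. For Wfs1 the 4 other KO libraries sit between 69.2 and 106 FPKM, above all WT libraries, and the library labelled KO3 at 38.7 FPKM lies among them; for Cisd2 the groups overlap between 12.8 and 13.6 FPKM.

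As Cisd2 differed little between the groups, the balance of the pair followed Wfs1. Per length, Wfs1 was 5.15 ± 1.59 times as high as Cisd2 in KO and 2.76 ± 0.234 times as high in WT (SD, n = 5 each). The ratio was 7.46 in KO5, the highest, and 3.02 in the library labelled KO3, the lowest of KO. The highest WT ratio was 3.02 as well, in WT2. Over the 10 libraries Pearson's r between the log2 values of the pair was 0.82 and Spearman's rho 0.84. After removal of the group means r was 0.65. That KO mean includes the library labelled KO3, the lowest KO library for both genes, so its distance stays in the 0.65. The 2 genes share depth and dissection within a library, and these values are a description.

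The other CISD genes were at similar or higher levels per length and did not pass the test. Cisd1 encodes mitoNEET, an iron-sulfur protein of the outer mitochondrial membrane. It averaged 35.4 ± 2.27 FPKM in KO and 33.1 ± 2.59 FPKM in WT (SD, n = 5 each; log2 difference 0.097, SE 0.065, limma adjusted p = 0.316). Cisd3, the member inside mitochondria, averaged 14.99 ± 1.13 FPKM in KO and 13.2 ± 2.29 FPKM in WT (SD, n = 5 each; log2 difference 0.19, SE 0.10, limma adjusted p = 0.215). Of the 3 family members Cisd1 was thus the most abundant in both groups, and Cisd2 and Cisd3 lay close together.

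None of the nearest tested genes on the chromosomes passed the test over all 10 libraries on the FPKM as deposited (limma adjusted p under 0.05), and Ppp2r2c passed as lower under other settings. Ppp2r2c, a regulatory subunit of protein phosphatase 2A, lies 11026 bases downstream of Wfs1 and averaged 191 ± 14.4 FPKM in KO and 219 ± 14.8 FPKM in WT (SD, n = 5 each; log2 difference -0.20, limma adjusted p = 0.0739). Ppp2r2c was called lower without the library labelled KO3 (log2 difference -0.23, limma adjusted p = 0.0314), with median-of-ratios scaling (adjusted p = 0.0448), with quantile normalization (adjusted p = 0.0400), with library weights (adjusted p = 0.0428) and with voom (adjusted p = 0.0372); over all settings its adjusted p ran from 0.0314 to 0.622. Jakmip1, on the other side, averaged 39.9 ± 2.07 FPKM in KO and 41.4 ± 2.26 FPKM in WT (SD, n = 5 each; log2 difference -0.054, adjusted p = 0.514). Beside Cisd2, Slc9b2, a sodium and proton exchanger, had a log2 difference of 0.19 (adjusted p = 0.205) and 4930539J05Rik one of -0.079 (adjusted p = 0.781), both by limma. Both are low: 4930539J05Rik was at 0.898 to 2.49 FPKM in KO and 1.31 to 2.46 FPKM in WT.

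The libraries also differed in several marker lists, which moved beside Wfs1. Whether genotype or dissection lay behind these lists was not tested. The summed FPKM of 12 upper-layer neuron markers was 246, 241, 227 and 218 in KO1, KO2, KO4 and KO5, 336 in the library labelled KO3, and 329 to 358 in WT. Of these markers 7 fell and 0 rose by limma (2 had a positive log2 difference); 3.51% of all tested genes fell and 9.77% rose. The 4 KO libraries with Wfs1 above all WT libraries were the 4 with the lowest upper-layer sums, and KO5 was at the end of both ranges. The sum of 12 markers of GABAergic interneurons was 599, 539, 623 and 736 in those KO libraries, 432 in the library labelled KO3 and 296 to 399 in WT, with 8 markers higher and 1 lower. The sum of 13 reactive astrocyte genes was 552, 522, 836 and 566 in the 4 KO libraries, 141 in the library labelled KO3 and 107 to 146 in WT, with 9 of 11 tested higher. KO4 had the highest reactive sum and KO5 the highest Wfs1. Gfap alone made 673 of the summed 836 FPKM in KO4 and 106 of the 141 FPKM in the library labelled KO3.

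Striatal tissue is a setting in which Wfs1 is known to be abundant, and striatal markers also varied. The summed FPKM of 14 striatal projection neuron markers was 831, 930, 760 and 896 in KO1, KO2, KO4 and KO5, 749 in the library labelled KO3, and 394, 952, 530, 549 and 336 in WT1 to WT5. The sums of all KO libraries lay above those of WT1, WT3, WT4 and WT5, and WT2 was the highest of the 10. All 14 markers had a positive log2 difference, as had 10073 of all 14497 tested genes. Of the 14, 4 rose, where 9.77% of all genes did. At an unadjusted p under 0.05, 71.4% were higher (beside 25.1% of all genes) and 0% lower (beside 7.75%). With the mean log2 level of these markers as a covariate, the log2 difference of Wfs1 was 0.76 (SE 0.25) and that of Cisd2 0.063 (SE 0.067). The sum of 12 olfactory bulb markers was 31.7 to 97.0 in KO and 10.6 to 52.2 in WT. All 12 had a positive log2 difference, and 4 of them rose, beside the same 9.77% of all genes. At an unadjusted p under 0.05, 100% of the 12 were higher, beside the same 25.1% of all genes. With the level of these markers as a covariate the log2 difference of Wfs1 was 1.07 (SE 0.29). The part of the cell types behind any of these lists in the difference of Wfs1 was not tested.

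**Figure D2:**
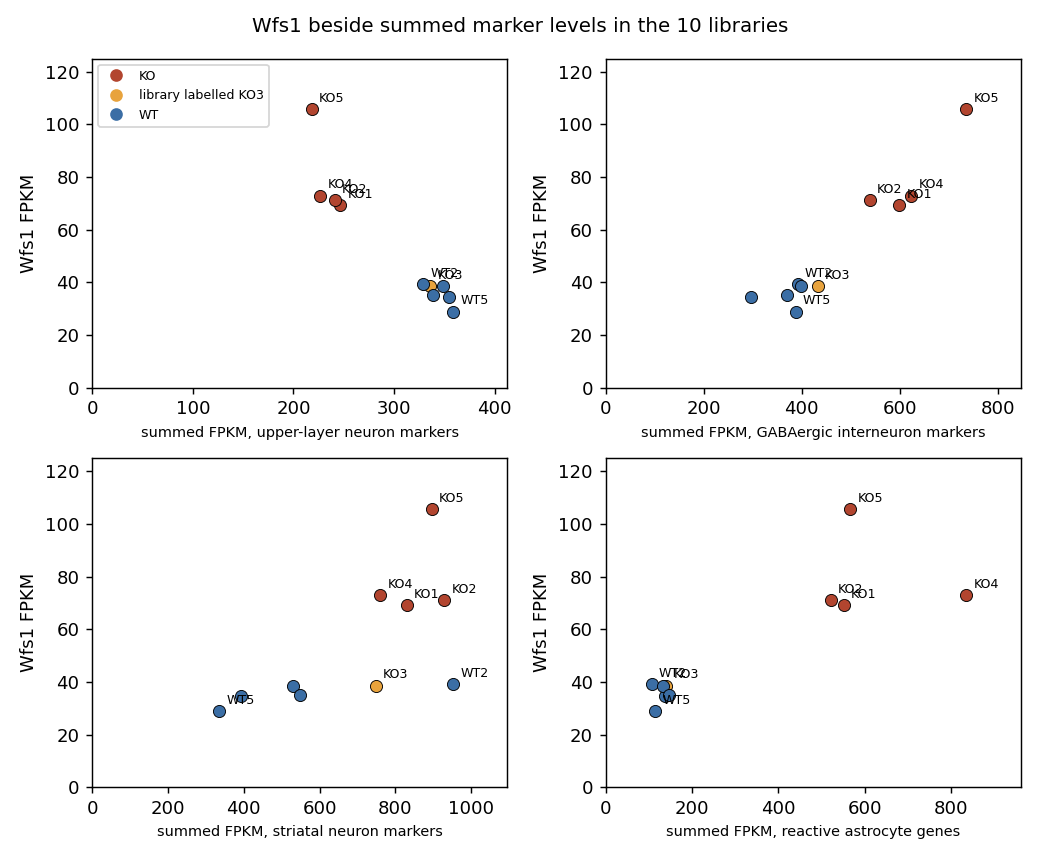
Wfs1 FPKM (vertical) against the summed FPKM of 4 marker lists (horizontal) in the 10 libraries; red points are KO, the orange point is the library labelled KO3 and blue points are WT, of which WT2 and WT5 are named. The 4 KO libraries with Wfs1 at 69.2 FPKM or more lie apart from the WT libraries for upper-layer, interneuron and reactive genes, while for striatal markers the KO libraries lie at 749 to 930 and the WT libraries at 336 to 952.

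Oligodendrocyte and microglial sums split the libraries as Wfs1 did. The sum of 10 oligodendrocyte markers was 1772, 1751, 1682 and 1525 in KO1, KO2, KO4 and KO5, all below the WT sums of 1961 to 2408, and 2173 in the library labelled KO3. All 10 had a negative log2 difference. Of these 1 fell, where 3.51% of all genes did, and without the library labelled KO3 7 fell (70.0%, beside 6.36% of all genes). The sum of 12 microglial markers was 305, 347, 332 and 273 in the same 4 KO libraries, above the WT sums of 179 to 225, and 223 in the library labelled KO3. Of these markers 5 rose (9.77% of all genes did). The deep-layer markers were mixed: 5 of 12 rose, Fezf2, Tbr1 and Etv1 had log2 differences of -0.032, -0.14 and -0.22 (limma adjusted p of 0.911, 0.156 and 0.238), and the sum was 149 to 195 in KO and 119 to 155 in WT. The astrocyte and endothelial sums overlapped between the groups. The sum of 12 general astrocyte markers was 1122 to 1414 in KO and 1146 to 1370 in WT, with 1 marker higher. Of 10 endothelial markers 1 rose, with a sum of 138 to 219 in KO and 156 to 198 in WT.

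The genes whose log2 values followed Wfs1 most closely over the 10 libraries were Mms19, Trp53i11, Synpo2, Scn7a and Adcyap1r1, with Pearson's r of 0.994, 0.990, 0.987, 0.984 and 0.984. Mms19 is a factor of iron-sulfur cluster delivery in the cytosol, Synpo2 an actin-associated protein, Scn7a an atypical sodium channel and Adcyap1r1 the receptor of the peptide PACAP. Mms19 was at 4.19, 4.21, 4.22 and 4.68 FPKM across KO1, KO2, KO4 and KO5, at 3.60 FPKM in the library labelled KO3, and 3.25 to 3.60 FPKM in WT. Trp53i11 averaged 29.4 ± 7.33 FPKM in KO and 18.5 ± 1.67 FPKM in WT (SD, n = 5 each). As with Wfs1, KO5 was the highest library and WT5 the lowest for each of the 5 genes. Spearman's rho was between 0.794 (Adcyap1r1) and 0.976 (Scn7a). With group means removed, r was between 0.953 and 0.984 for these 5. The removed KO mean includes the library labelled KO3, so its distance from the other KO libraries stays in these values.

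Among the 5 most opposite genes were Osbpl1a, Nudt4, Ntm and Efna5, with r between -0.993 and -0.986. Osbpl1a encodes an oxysterol-binding protein of endosomes, Ntm the adhesion protein neurotrimin and Efna5 the guidance ligand ephrin-A5. Osbpl1a averaged 35.5 ± 11.9 FPKM in KO and 61.2 ± 6.70 FPKM in WT (SD, n = 5 each). Both the most alike and the most opposite genes were picked as the extremes of all tested genes. As 4 libraries that lie apart from 6 give many genes a high r, no more is read from the values.

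Cisd2 had another set of nearest genes, led by Emc3, a subunit of the membrane protein complex that inserts proteins into the endoplasmic reticulum (r = 0.986). Emc3 was at 33.7, 29.0, 30.9 and 31.3 FPKM across KO1, KO2, KO4 and KO5, at 28.1 FPKM in the library labelled KO3, and 26.5, 27.8, 29.2, 26.9 and 25.3 FPKM in WT1 to WT5. Rbmxl1, Pcnxl3, Vwc2 and Yipf5, a protein that cycles between the endoplasmic reticulum and the Golgi, followed with r between 0.957 and 0.981. KO1 was the highest library for Cisd2 and for each of these 5 genes, and not KO5 as for Wfs1. Among the 5 most opposite were Crot, Dennd5a, Stk11 and Mobp, with r between -0.940 and -0.916; Crot transfers fatty acids in peroxisomes, Stk11 is the kinase LKB1 and Mobp a myelin protein.

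**Figure D3:**
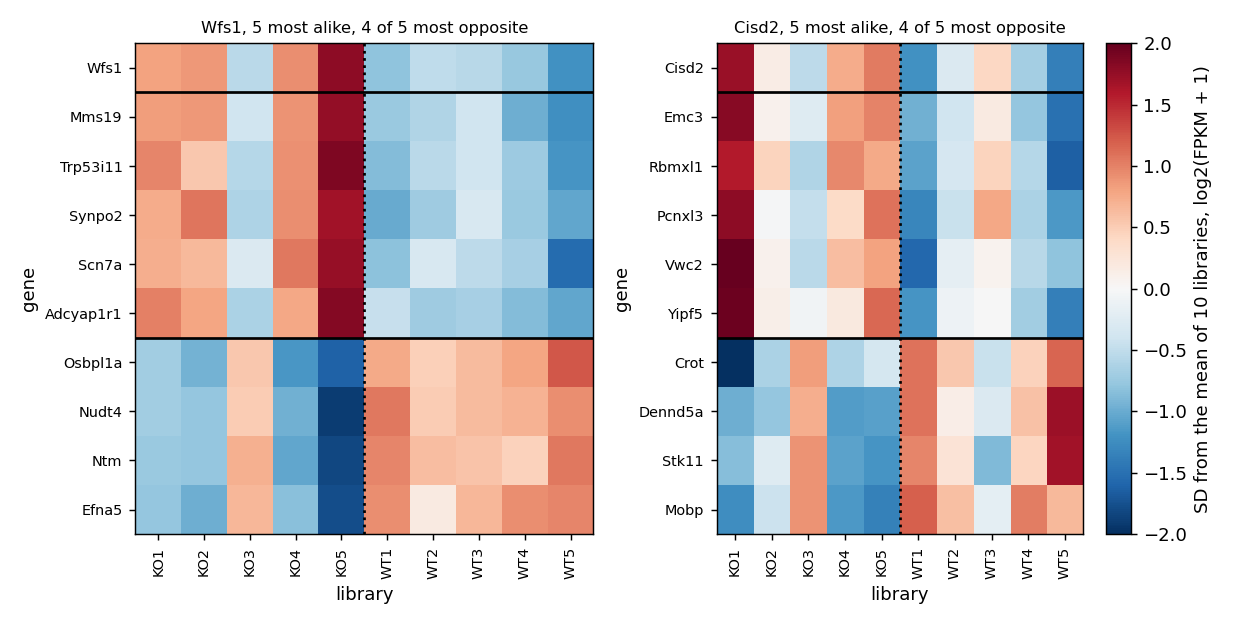
Level of Wfs1 (left) and Cisd2 (right) and of the 5 genes most alike and 4 of the 5 most opposite to each, per library (columns, KO left of WT), in SD from the mean of the 10 libraries on the log2(FPKM + 1) scale. For Wfs1 the library labelled KO3 has the colours of the WT columns and KO5 is the extreme; for Cisd2 and the 5 genes most alike the highest column is KO1.

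The wider pathway was read from lists of genes that work with wolframin or CISD2, 112 genes without the members, of which 108 passed the filter of 0.5 FPKM. Of these, 11 rose and 0 fell in KO by limma at an adjusted p under 0.05, or 10.2%, where 9.77% of all 14497 tested genes rose and 3.51% fell. At an unadjusted p under 0.05, 35 were higher (32.4%) and 3 lower (2.78%), where 25.1% and 7.75% of all tested genes were. The median log2 difference of the 108 genes was 0.0771, beside 0.0779 for all genes, so as a whole these genes lay at the background. Without the library labelled KO3, 23 rose (21.3%) and 2 fell (1.85%), beside 19.6% and 6.36% of all genes. The split turned with the scaling: with median-of-ratios scaling 1 was called higher and 3 lower, and over all genes 608 higher and 945 lower in place of 1417 and 509. None was called without KO2, without KO4 or without WT1, fits in which 1 of all genes was called higher and 1 lower.

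Among 10 binding partners and clients 2 rose, Vdac1 and Atp1b1, and 0 fell by limma, where 9.77% and 3.51% of all genes did. At an unadjusted p under 0.05, 2 were higher (beside 25.1% of all genes) and 2 lower (beside 7.75%). With voom on recovered fragments 0 rose and 2 fell, namely Itpr1 and Atp2a2, described below. Vdac1, the calcium and metabolite channel of the outer mitochondrial membrane, was at 207, 233, 231 and 199 FPKM across KO1, KO2, KO4 and KO5, at 205 FPKM in the library labelled KO3, and 149, 175, 194, 190 and 169 FPKM in WT1 to WT5. Its 5 KO values all exceeded the 5 WT values (log2 difference 0.30, SE 0.080, limma adjusted p = 0.0351), as in 5.7% of all tested genes, while in 1.85% all KO values were below all WT values. Atp1b1, the sodium pump subunit that wolframin binds, averaged 515 ± 40.6 FPKM in KO and 426 ± 32.9 FPKM in WT (SD, n = 5 each; log2 difference 0.27, limma adjusted p = 0.0407). Neither passed with median-of-ratios scaling, where the log2 differences were 0.20 and 0.17.

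The partners that hold or release calcium in the endoplasmic reticulum were lower in most KO libraries without passing the test. Itpr1, the inositol trisphosphate receptor at which CISD2 acts, was at 60.9, 71.7, 48.8 and 47.6 FPKM across KO1, KO2, KO4 and KO5, at 76.1 FPKM in the library labelled KO3, and 79.3, 85.8, 74.8, 71.5 and 86.2 FPKM in WT1 to WT5. In 3 KO libraries it lay below every WT library (log2 difference -0.40, SE 0.12, limma adjusted p = 0.0522). Without the library labelled KO3 the log2 difference was -0.48 (limma adjusted p = 0.0102), and with median-of-ratios scaling it was -0.50 (limma adjusted p = 0.0436). Atp2a2, the pump SERCA2 that fills the store, averaged 242 ± 14.9 FPKM in KO and 265 ± 12.7 FPKM in WT (SD, n = 5 each; log2 difference -0.13, limma adjusted p = 0.150), and passed as lower with median-of-ratios scaling (log2 difference -0.23, limma adjusted p = 0.0477).

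The remaining partners had small differences. Syvn1, which encodes HRD1, and its adaptor Sel1l had log2 differences of 0.036 and 0.019, and Atf6 one of 0.038 (limma adjusted p of 0.774, 0.858 and 0.655). Each of these 3 was below 0 with median-of-ratios scaling. Bcl2, Becn1 and Ncs1, the neuronal calcium sensor reported to bind wolframin, had log2 differences of 0.012, -0.012 and 0.058 (limma adjusted p of 0.902, 0.912 and 0.650), and Bcl2 and Ncs1 were below 0 with that scaling.

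Of 19 tested genes of calcium handling in the endoplasmic reticulum 1 rose and 0 fell (5.26% higher, beside 9.77% of all genes). At an unadjusted p under 0.05, 6 were higher (31.6%, beside 25.1% of all genes) and 3 lower (15.8%, beside 7.75%; median log2 difference 0.067). Canx, the chaperone calnexin, averaged 86.8 ± 7.08 FPKM in KO and 75.2 ± 2.55 FPKM in WT (SD, n = 5 each; log2 difference 0.20, SE 0.060, limma adjusted p = 0.0448). With voom on recovered fragments 0 rose and 3 fell, namely Itpr1, Atp2a2 and the ryanodine receptor Ryr2. Ryr2, named after its values were seen, averaged 13.9 ± 1.52 FPKM in KO and 16.1 ± 1.09 FPKM in WT (SD, n = 5 each; log2 difference -0.20, limma adjusted p = 0.0930).

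Genes of the contacts between endoplasmic reticulum and mitochondria had the most calls: 6 of 25 rose and 0 fell (24.0%, beside 9.77% of all genes). At an unadjusted p under 0.05, 11 were higher (44.0%, beside 25.1% of all genes) and 0 lower (beside 7.75%). Atad3a, a mitochondrial membrane ATPase, was at 11.5, 10.9, 11.4 and 12.8 FPKM across KO1, KO2, KO4 and KO5, at 10.3 FPKM in the library labelled KO3, and 8.72 to 9.60 FPKM in WT. Its KO values all exceeded its WT values, as in 5.7% of all tested genes (log2 difference 0.27, SE 0.059, limma adjusted p = 0.0206). Atad3a was the 1 gene of the pathway lists still called higher with median-of-ratios scaling. Fundc1, a mitophagy receptor at these contacts, rose by a log2 difference of 0.35 (SE 0.087, adjusted p = 0.0295 by limma), and Vdac3, a channel of the same family as Vdac1, by 0.32 (SE 0.085, adjusted p = 0.0326). Vdac1 was also on this list, and the thioredoxin-like protein Tmx1 rose by 0.22 (limma adjusted p = 0.0371). The median log2 difference of the list was 0.10, against 0.0779 for all genes.

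None of 28 tested genes of the unfolded protein response passed in either direction by limma, and 5 were higher (17.9%, below the 25.1% of all genes) and 0 lower (beside 7.75%) at an unadjusted p under 0.05; voom on recovered fragments also called 0. The lowest p belonged to Dnajb9, the chaperone ERdj4, at 16.5 ± 1.28 FPKM in KO and 14.4 ± 0.927 FPKM in WT (SD, n = 5 each; log2 difference 0.18, limma adjusted p = 0.0682). The median log2 difference of 0.074 lay beside 0.0779 for all genes. Without the library labelled KO3, 3 of the 28 rose: Dnajb9, Edem1, which takes misfolded glycoproteins to degradation, and Eif2ak3, the sensor PERK. This was 10.7% of the list, below the 19.6% of all genes that rose in the same fit.

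Of 20 genes of iron-sulfur cluster assembly 3 rose and 0 fell, where 9.77% and 3.51% of all genes did. At an unadjusted p under 0.05, 8 were higher (40.0%, beside 25.1% of all genes) and 0 lower (beside 7.75%). Iscu, the scaffold on which clusters are built, averaged 30.1 ± 1.36 FPKM in KO and 25.5 ± 2.51 FPKM in WT (SD, n = 5 each; log2 difference 0.23, limma adjusted p = 0.0394). Bola1 and Isca2, late factors of the same route, rose by 0.28 and 0.27 on the log2 scale (limma adjusted p of 0.0250 and 0.0418). None of the 3 passed with median-of-ratios scaling. Of 16 genes of human disorders that resemble Wolfram syndrome none passed by limma or by voom. At an unadjusted p under 0.05, 5 were higher (31.2%, beside 25.1% of all genes) and 0 lower (beside 7.75%). The lowest p was that of Yipf5 (log2 difference 0.19, limma adjusted p = 0.0763), which had also been among the genes most alike to Cisd2.

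**Figure D4:**
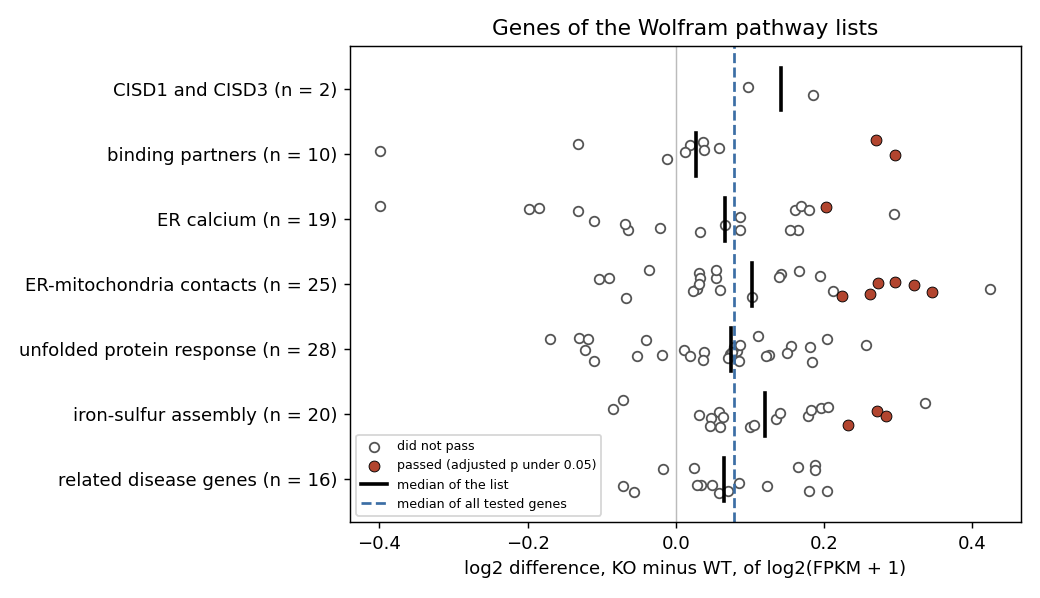
Log2 difference, KO minus WT, of each tested gene of the pathway lists, Wfs1 and Cisd2 left out; filled points passed at a limma adjusted p under 0.05, black bars are list medians and the dashed line is the median of all tested genes at 0.0779. The filled points all lie to the right of that line, 6 of them among the 25 contact genes and none among the 28 genes of the unfolded protein response.

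**Figure D5:**
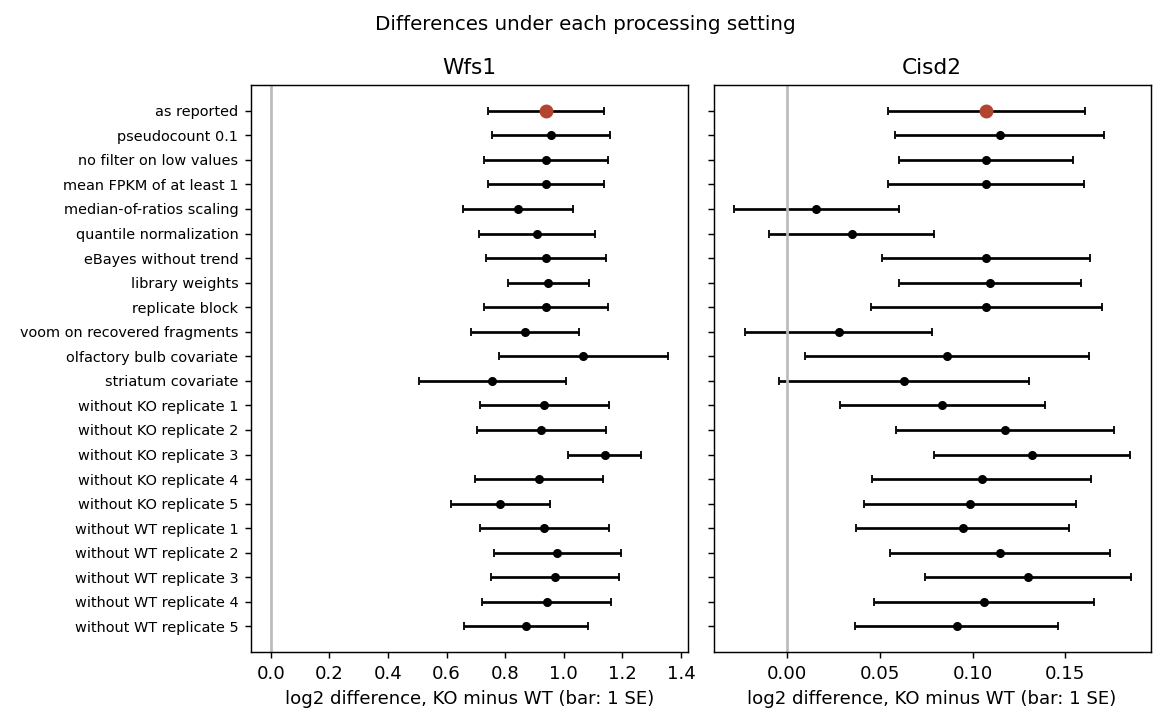
Log2 difference, KO minus WT, of Wfs1 (left) and Cisd2 (right) under each processing setting, with 1 SE; the red point is the value as reported. Wfs1 stays between 0.76 and 1.14 in all settings shown, while Cisd2 lies at 0.016 to 0.035 under the 3 settings that rescale the libraries (median-of-ratios, quantile and voom) and at 0.063 to 0.13 in the others.

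Across these settings the log2 difference of Wfs1 was lowest with the striatal covariate and highest without the library labelled KO3. Leaving out KO5, the library with the highest Wfs1, gave 0.78. Cisd2 was above 0 under every setting tried, by less than 1 SE under each of the 3 that rescale the libraries and with the striatal covariate.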

How the data were processed

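RNA from motor cortex was isolated (Kurabo kit) and NEBNext Ultra libraries were prepared, according to the labels' protocols. The authors deposited FPKM per gene and library with coordinates and gene lengths, per the file headers. Build mm10 and DESeq2 are listed, without their use, per the submitters' processing notes; the sources used here give no aligner, counter or annotation. FPKM times gene length gave whole fragments, within 0.02 of a whole number, in 100.0% of values above 0, so depth is known. The labels call the 5 samples of a group biological repeats. All 45 pairs of libraries differed by more than counting error (chi-square per gene 7.22 or higher).

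KO was compared with WT with limma 3.58.1 in R 4.3.3 (lmFit, eBayes with trend, two-sided) on log2(FPKM + 1), over genes whose mean reached 0.5 FPKM, with Benjamini-Hochberg adjustment over all of them; fold changes of low genes are understated. The fit was run on simulated counts with the same spread setting for every gene and no library unlike its group. These data differ from that setting, so the run does not check the calls made here. Nothing states that the libraries keep strand. Members and lists were chosen with earlier results of these data known. The text names the members, Tmem259, all CISD genes and partners, up to 5 called genes per other list (or that of lowest p), the 5 genes most alike and opposite by Pearson's r, and the nearest tested neighbours. 3 list genes (Saraf, Mcub, Drd1) were matched by identifier. Gfap, Ryr2, Edem1 and Eif2ak3 were named after their values were seen. Some genes that the rule names are not reported here. Alternatives are given in the closing section.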

Additional observations from a re-analysis of the deposited data

Results flagged for a closer look

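In 9 of 136 groups of 5 values examined (named genes and summed lists), 1 library lay apart from the others of its group, where chance gives about 1 in 20. In 4 of the 9 it was the library labelled KO3, at 14.1 FPKM for Tmx1, 84.0 FPKM for Dennd5a, a summed 297 FPKM for the iron-sulfur list and 336 FPKM for the upper-layer list. WT1 lay apart for Atf6 (18.0 FPKM) and for the contact (820 FPKM) and interneuron (296 FPKM) lists. KO2 lay apart for the endoplasmic reticulum calcium list (884 FPKM), and WT5 for the endothelial list (198 FPKM). By this rule Wfs1 and Cisd2 themselves had no such library in either group. For Wfs1 in KO, the library labelled KO3 (38.7 FPKM) and KO5 (106 FPKM) lay at opposite ends. The rule looks for a single library and can miss such a pair.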

How the results depend on the processing

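The log2 differences of Wfs1 and Cisd2 kept their sign under every alternative, and leaving out each library gave 0.78 to 1.14 for Wfs1 and 0.084 to 0.13 for Cisd2. Cisd2 moved to 0.016 with median-of-ratios scaling, 0.035 with quantile normalization and 0.028 with voom on recovered fragments. Over all genes, 1417 were called higher and 509 lower. The counts were 347 and 118 with no filter on low values, 608 and 945 with median-of-ratios scaling, 617 and 790 with quantile normalization, 2665 and 892 with library weights and 726 and 989 with voom. They were 0 and 0 with either the olfactory bulb or the striatal covariate, with 2618 and 2575 genes at an unadjusted p under 0.05. Leaving out each library gave 1 to 2845 higher and 1 to 924 lower. Of the pathway genes, 11 were called higher and 0 lower. These counts were 2 and 0 with no filter, 1 and 3 with median-of-ratios scaling, 2 and 1 with quantile normalization, 22 and 2 with library weights, 1 and 3 with voom and 0 and 0 with each covariate; 1 was called lower with a mean of at least 1 FPKM. Leaving out each library gave 0 to 23 higher and 0 to 2 lower. The cause of these changes was not tested.

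The replicate numbers in the labels did not pair the samples: the correlations of same-numbered deviations were 0.138, -0.043, -0.057, 0.139 and 0.114, and 2 of 5 KO samples correlated best with their own number. With the replicate number as a block 884 genes were called higher and 387 lower, and 4 pathway genes higher.

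Among named genes, signs turned with median-of-ratios scaling, quantile normalization, voom or a covariate as follows. Ncs1 was -0.040 (median-of-ratios) and -0.030 (voom). Syvn1 was -0.053, -0.043, -0.047 (voom) and -0.032 (olfactory bulb covariate). Sel1l was -0.077, -0.022, -0.069, -0.030 and -0.016 (striatal covariate). Atf6 was -0.055, -0.029 and -0.048, Bcl2 -0.067, -0.090 and -0.073, and Pcnxl3 -0.0026 (median-of-ratios). Becn1 was 0.073 and 4930539J05Rik 0.15 with the striatal covariate. Leaving out each library gave -0.013 to 0.082 for Syvn1, -0.015 to 0.048 for Sel1l, -0.012 to 0.027 for Bcl2, -0.059 to 0.013 for Becn1 and -0.17 to 0.050 for 4930539J05Rik.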
